A study of Mus musculus with 10 samples.

Results

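Rbm3 and Cirbp, the genes of the cold-inducible RNA-binding proteins RBM3 and CIRBP, were followed in mouse kidney at high altitude. They were taken by gene name from the deposited expression table and make up 2 of its 55952 genes. Both had been picked because they were known to be higher in the hypoxia libraries of these same data, so their difference between the groups is described here without a test. Kidney RNA came from C57BL/6 mice, a widely used inbred strain, kept for 30 days at 4200 m (hypoxia, 5 libraries) or at 400 m (control, 5 libraries). No allele or agent beyond the altitude is named for either group. The labels give no age, sex, housing temperature or time of day, and do not state that each library came from its own mouse, so errors describe the spread between libraries. Altitude and housing site cannot be told apart, because each group lived at its own site.

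RBM3 and CIRBP are small nuclear proteins with an RNA recognition motif and a tail rich in glycine and arginine. Mild cooling of mammalian cells raises their transcripts, and heat lowers them while raising those of chaperones. They bind other transcripts and influence their stability, translation and polyadenylation, and in mouse fibroblasts CIRBP binds the Clock transcript. Both genes have also been reported to respond to low oxygen in cultured human cells without a need for HIF-1.

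In the files' coordinates, which match GRCm38, Rbm3 (ENSMUSG00000031167) lies on the minus strand of chromosome X from 8138975 to 8145880. Cirbp (ENSMUSG00000045193) lies on the plus strand of chromosome 10 from 80165985 to 80172786. The RefSeq promoter table for GRCm38.p6, which runs from 250 bases before to 50 bases after a start site, held 2 start sites of Cirbp. The sequence of the first, chr10:80167589-80167888 on the plus strand, is shown because it holds the octamer TCCCCGCC, known as the mild cold responsive element of Cirbp. Capitals mark this octamer and the 2 CCAAT boxes, the second of them on the opposite strand as ATTGG.
Cirbp promoter, start site 1: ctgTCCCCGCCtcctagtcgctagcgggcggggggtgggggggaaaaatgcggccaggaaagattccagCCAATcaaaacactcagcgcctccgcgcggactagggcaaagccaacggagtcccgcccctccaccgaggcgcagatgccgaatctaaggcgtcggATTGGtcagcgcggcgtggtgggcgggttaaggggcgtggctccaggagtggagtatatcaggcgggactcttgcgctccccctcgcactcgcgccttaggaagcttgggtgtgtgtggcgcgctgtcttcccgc
The octamer began 247 bases before the start site, and the CCAAT boxes began 181 and 85 bases before it. Of 32851 promoters of the same length, 5.38% held TCCCCGCC and 37.4% held CCAAT on either strand. The Cirbp promoter was 65.7% G and C, against a median of 52.7% over all promoters, so words rich in G and C are more likely in it. Neither start site of Cirbp held the heat shock element core GAANNTTC, the E-box CACGTG or the hypoxia response element core ACGTG, which 7.86%, 7.15% and 19.6% of all promoters held on either strand. The second start site held none of the 5 words searched. ACGTG is part of CACGTG, and none of the words found overlapped another. The expression table has 1 value per gene, so use of the start sites was not measured.

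Hypoxia replicates 4 and 5 stood apart from the other libraries in markers of other tissues. Whole reads could be recovered from the deposited values, which are FPKM, a read count divided by gene length and library size. The 10 libraries held 16561672 to 17845464 reads assigned to genes. The tissue label kidney was checked with 6 tubule markers, which summed to 1513 to 2632 FPKM in hypoxia and 2433 to 2980 FPKM in controls. The labels' protocol names the retina, but 5 retina markers summed to 0.122 to 0.428 FPKM in hypoxia and 0.301 to 0.656 FPKM in controls, with Rcvrn at 0 throughout. All 5 adrenal cortex markers together reached 673 FPKM in hypoxia replicate 4, against 0.920 to 1.47 FPKM in controls, and 5 white fat markers 608 FPKM against 47.0 to 134 FPKM in controls. All 6 B and plasma cell markers together reached 449.9 FPKM in hypoxia replicate 5, against 1.33 to 1.94 FPKM in controls. The levels and fold changes of Rbm3 and Cirbp are therefore also given without these 2 libraries. Other results use all 10 libraries unless stated.

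Rbm3 was at 13.9, 16.5, 16.9, 23.6 and 21.1 FPKM in hypoxia replicates 1 to 5, against 6.61, 6.59, 6.78, 5.48 and 6.57 FPKM in control replicates 1 to 5. Every hypoxia library lay above every control library, and the lowest hypoxia value was 2.05 times the highest control value. The mean was 18.4 ± 3.88 FPKM in hypoxia and 6.41 ± 0.523 FPKM in controls (SD, n = 5 each), a 2.87-fold difference. The log2 fold change on the log2(FPKM + 0.5) scale, where changes of weakly expressed genes come out too small, was 1.43 (SE 0.131). These levels rested on 1146 to 1969 reads per hypoxia library and 468 to 535 reads per control library.

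Cirbp was at 13.8, 17.6, 13.4, 21.4 and 18.4 FPKM in hypoxia replicates 1 to 5, against 7.89, 9.29, 8.02, 8.92 and 7.35 FPKM in control replicates 1 to 5. The groups did not overlap here either, and the lowest hypoxia value was 1.44 times the highest control value. The mean was 16.9 ± 3.34 FPKM in hypoxia and 8.29 ± 0.791 FPKM in controls (SD, n = 5 each), a 2.04-fold difference with a log2 fold change of 0.97 (SE 0.127). Between 598 and 987 reads per hypoxia library and 318 to 422 reads per control library lay behind these levels. In bulk tissue, more cells that express a gene and more RNA per cell cannot be told apart.

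**Figure D1:**
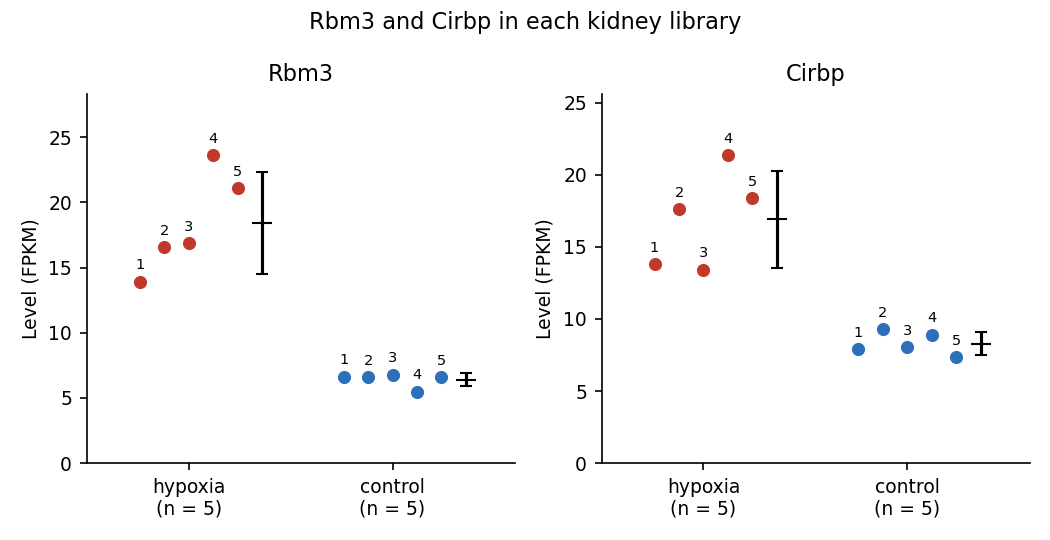
Level in FPKM (y axis) of Rbm3 and Cirbp in each hypoxia and control library. Points are libraries numbered by replicate, and the bar beside each group is the mean with its SD (n = 5). All 5 hypoxia libraries lie above all 5 control libraries for both genes, and hypoxia replicates 4 and 5 are the highest.

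Across the table, 5.68% of 15264 tested genes were higher in hypoxia with no overlap of the groups, and both members are among them because they were chosen so. By the size of the log2 fold change, Rbm3 ranked 171 and Cirbp 462 from the highest, so that 1.12% and 3.03% of tested genes were as high or higher. The genes were of middling to high level. The mean of Rbm3 exceeded that of 83.5% of tested genes in hypoxia and 59.4% in controls, and that of Cirbp 82.1% in hypoxia and 66.0% in controls.

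The hypoxia libraries differed among themselves more than the controls did. The coefficient of variation of Rbm3 was 21.1% in hypoxia and 8.17% in controls, and that of Cirbp 19.7% in hypoxia and 9.54% in controls. Hypoxia replicates 4 and 5, the libraries with adrenal, fat and B cell transcripts, held the highest levels of both genes. Their mean was 22.3 FPKM for Rbm3 and 19.9 FPKM for Cirbp. The part of the additional tissue in these levels was not tested. In hypoxia replicates 1 to 3 alone, where the adrenal markers summed to 1.46 to 1.68 FPKM and the B and plasma cell markers to 5.19 to 5.94 FPKM, Rbm3 was at 15.8 ± 1.62 FPKM and Cirbp at 14.9 ± 2.32 FPKM (SD, n = 3). Against all 5 controls these levels were 2.46-fold higher for Rbm3 and 1.80-fold higher for Cirbp, with log2 fold changes of 1.24 (SE 0.0899) and 0.80 (SE 0.107). With those 3 libraries, 9.73% of 14724 tested genes were higher with no overlap. Rbm3 then ranked 85 and Cirbp 228 from the highest.

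**Figure D2:**
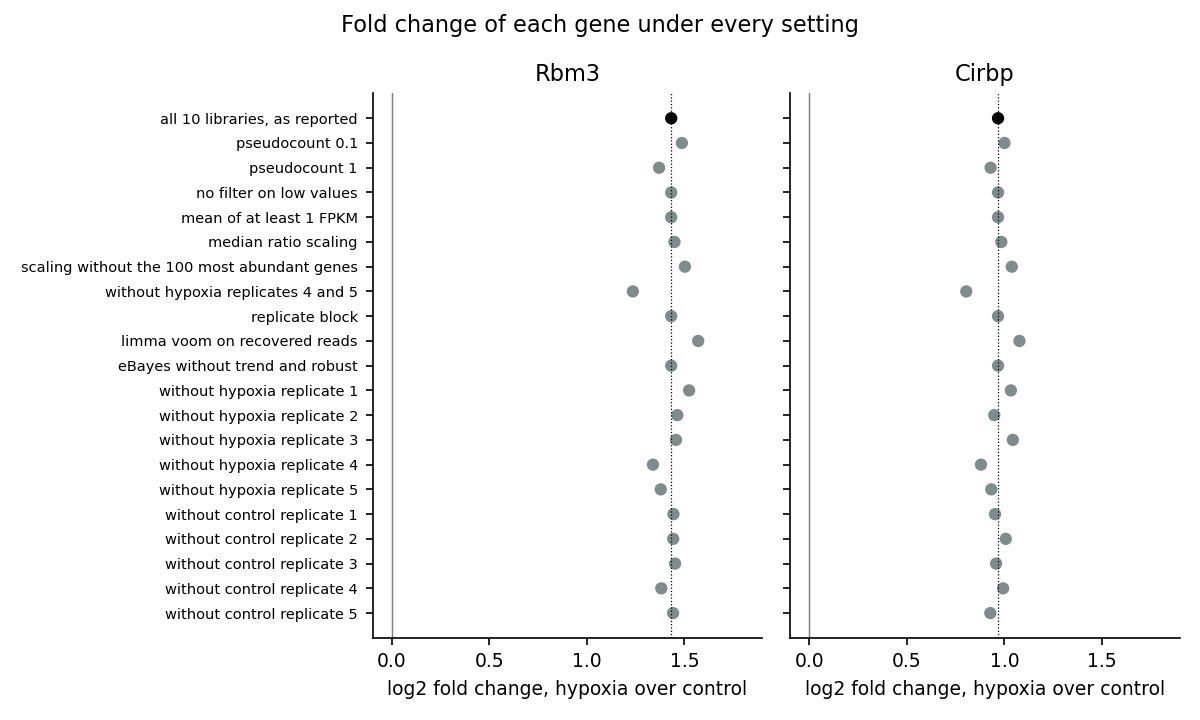
Log2 fold change, hypoxia over control (x axis), of Rbm3 and Cirbp with all 10 libraries (black point and dotted line) and under each other setting (grey points, named on the y axis). Without hypoxia replicates 4 and 5 the value is lowest for both genes, 1.24 for Rbm3 and 0.80 for Cirbp.

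The ratio of Rbm3 to Cirbp was 0.941 to 1.26 in hypoxia libraries, with a mean of 1.09 ± 0.123, and 0.615 to 0.894 in control libraries, with a mean of 0.780 ± 0.115 (SD, n = 5 each). In FPKM, Cirbp was thus above Rbm3 in all 5 controls, whereas in hypoxia their means differed by less than the spread between libraries. The lengths used by the authors, 4698 bases for Rbm3 and 2604 bases for Cirbp, equal the union of all annotated exons in GENCODE vM21. Those unions include 2 retained-intron and 2 nonsense-mediated decay transcripts of Rbm3, and 4 and 1 of Cirbp. Principal coding mRNAs are shorter, 1152 to 2792 bases for Rbm3 and 1321 bases for Cirbp. If all reads came from the principal mRNAs, the hypoxia means would be 31.0 to 75.1 FPKM for Rbm3 and 33.3 FPKM for Cirbp, and the control means 10.8 to 26.1 FPKM for Rbm3 and 16.3 FPKM for Cirbp. The order of their levels therefore depends on the transcript assumed. The ratio between the groups for each gene does not, provided both groups use the same transcripts. Use of the transcripts in each group was not measured.

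**Figure D3:**
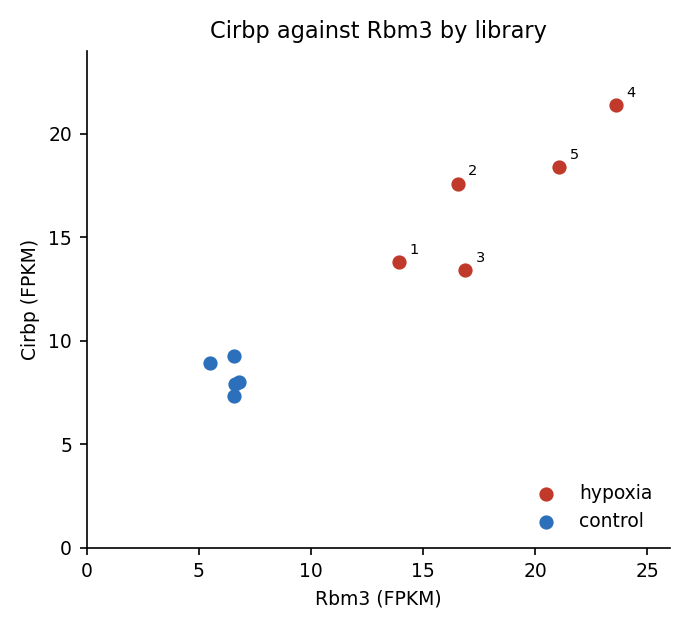
Cirbp (y axis, FPKM) against Rbm3 (x axis, FPKM) in each library, red for hypoxia (numbered by replicate) and blue for control. The controls form a tight cloud at 5.48 to 6.78 FPKM of Rbm3, and hypoxia replicates 4 and 5 lie at the far end of both axes.

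Copies of the Rbm3 sequence elsewhere in the genome could take some of its reads. Searched against all GENCODE vM21 transcripts, the Rbm3 transcripts matched 4 processed pseudogenes on the same strand at an identity of at least 95%. Rbm3-ps on chromosome 1 (150265535 to 150265999) was 99.4% identical over 465 bases, with an identical run of 197 bases. Gm10156 on chromosome 7 was 98.5% identical over 465 bases, Gm48583 on chromosome 13 was 98.7% identical over 223 bases, and Gm13624 on chromosome 2 was 96.1% identical over 465 bases. Phospho2 on chromosome 2 matched on the opposite strand, at 97.4% over 380 bases, and was at 5.72 ± 0.270 FPKM in hypoxia and 6.21 ± 0.380 FPKM in controls. Apart from Rbm3-ps, these copies were chosen by sequence and not by name. No transcript of another gene matched Cirbp at 90% identity over 100 bases.

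Rbm3-ps had 30, 32, 43, 49 and 50 reads in hypoxia replicates 1 to 5, against 28, 20, 14, 17 and 3 reads in control replicates 1 to 5. Its level was 4.94 ± 1.12 FPKM in hypoxia and 2.08 ± 1.18 FPKM in controls (SD, n = 5 each), with no overlap of the groups (log2 fold change 1.21, SE 0.351, limma adjusted p = 0.0498). Leaving out any library other than control replicate 1 or 5 ended this call, with an adjusted p of up to 0.103 without hypoxia replicate 4, and it was 0.154 without hypoxia replicates 4 and 5. Gm10156 was at 4.44 ± 0.970 FPKM in hypoxia and 2.03 ± 0.858 FPKM in controls (log2 fold change 1.01, SE 0.234, adjusted p = 0.0231). It held 24 to 45 reads per hypoxia library and 8 to 25 reads per control library, and its call was not followed in other fits. Gm48583, at 9.90 ± 1.64 FPKM in hypoxia and 6.61 ± 2.47 FPKM in controls, did not pass (adjusted p = 0.115), and Gm13624 was listed at 0 in all libraries. Reads of these copies and of Rbm3 cannot be told apart with certainty, so the pseudogene values are uncertain. The 3 copies with reads each held 2.37 to 2.65% as many reads as Rbm3 in hypoxia and 3.11 to 4.87% in controls. Adding them to Rbm3 gave 1233 to 2097 reads per hypoxia library and 534 to 602 reads per control library. The ratio of mean reads was 2.92 with the copies and 3.02 without them, neither corrected for library size.

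Rbm3os, an antisense gene that overlaps the start of Rbm3 on the plus strand, held 3 to 12 reads per hypoxia library and 2 to 13 reads per control library. Its mean was under the minimum of 0.5 FPKM, so no test was made. Whether the counting used strand is not given in the sources used here, and without strand, reads of Rbm3 and Rbm3os cannot be told apart where they overlap. No gene in the table overlapped Cirbp.

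None of the nearest genes on either side passed the threshold of a limma adjusted p under 0.05, which 11.5% of all tested genes passed. Wdr13, 6083 bases from Rbm3, was at 13.3 ± 1.58 FPKM in hypoxia and 13.6 ± 0.446 FPKM in controls (log2 fold change -0.036, SE 0.0830, limma adjusted p = 0.799). Tbc1d25, 8592 bases away on the other side and encoding a Rab GTPase activator, was at 3.23 ± 0.278 FPKM in hypoxia and 3.904 ± 0.286 FPKM in controls (-0.24, SE 0.0777, adjusted p = 0.0712). Midn, 7617 bases from Cirbp and encoding midnolin, was at 16.2 ± 1.73 FPKM in hypoxia and 16.8 ± 2.62 FPKM in controls (-0.043, SE 0.111, adjusted p = 0.821). Fam174c, only 158 bases beyond the end of Cirbp, was at 3.996 ± 1.23 FPKM in hypoxia and 5.42 ± 1.11 FPKM in controls (-0.42, SE 0.192, adjusted p = 0.176). All 4 neighbours had log2 fold changes below 0, although that of Wdr13 was 0.018 without hypoxia replicates 4 and 5.

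**Figure D4:**
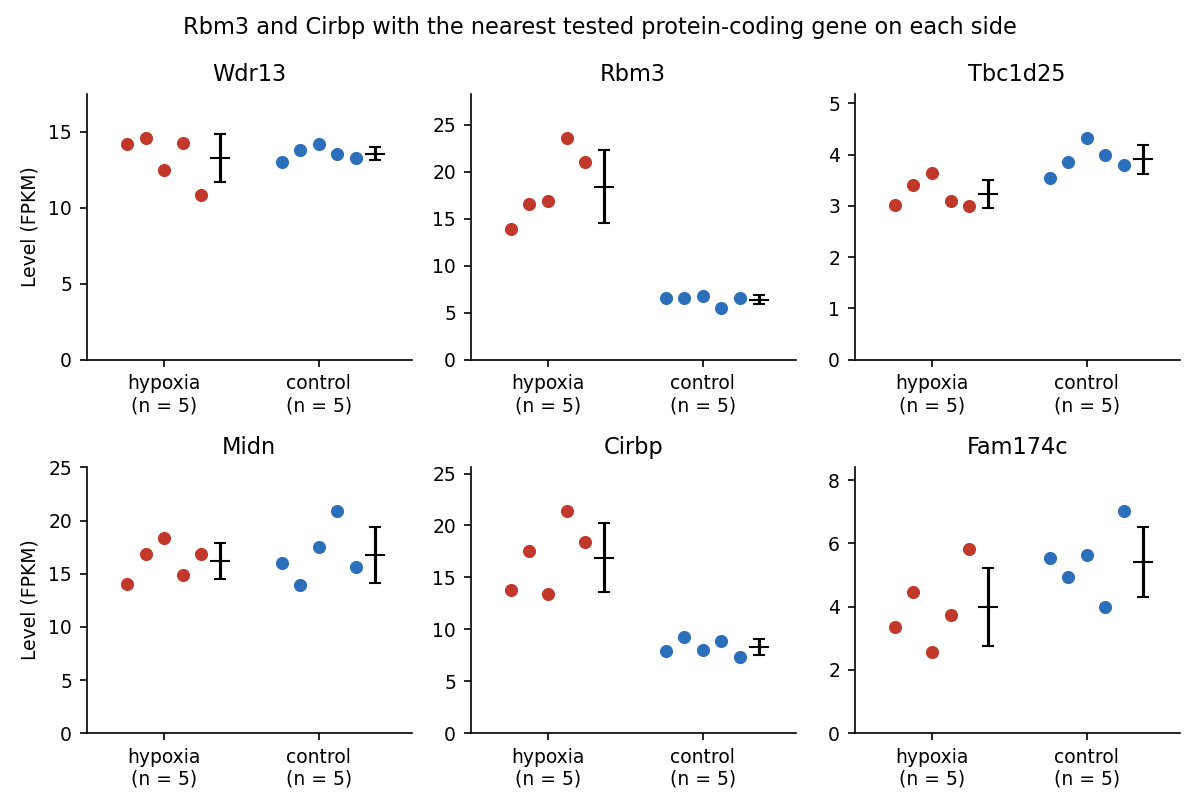
Level in FPKM (y axes) of Rbm3 with its nearest tested protein-coding genes Wdr13 and Tbc1d25 (top) and of Cirbp with Midn and Fam174c (bottom). Points are libraries, red for hypoxia and blue for control, and bars are the mean with its SD (n = 5). The neighbours overlap between groups or differ little, while Rbm3 and Cirbp do not overlap.

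Among 9950 protein-coding genes averaging 2 FPKM or more, likeness of pattern was measured by Pearson's r of log2(FPKM + 0.5) over the 10 libraries. Cirbp was the gene second most like Rbm3, at r = 0.959, and Rbm3 was in turn the second most like Cirbp. Such an r is mostly set by the gap between the groups, for which Rbm3 and Cirbp were chosen. On deviations from the group means, r between the 2 genes was 0.65 over the same libraries. This r includes hypoxia replicates 4 and 5, the highest in both genes, and was not computed without them. In hypoxia replicates 1 to 3, Rbm3 was at 13.9, 16.5 and 16.9 FPKM and Cirbp at 13.8, 17.6 and 13.4 FPKM. Snapin, which encodes a protein of the SNARE and BLOC-1 complexes, was the most like both, at r = 0.979 with Rbm3 and 0.966 with Cirbp. Its level was 14.3 ± 0.912 FPKM in hypoxia and 10.4 ± 0.298 FPKM in controls (SD, n = 5 each). The other genes closest to Rbm3 were H2-Q6, a non-classical MHC class I gene (0.958), Pigr, the receptor that carries IgA across epithelia (0.956), and Kynu, kynureninase (0.948). Those closest to Cirbp were Optn, an autophagy receptor (0.956), Lxn, a carboxypeptidase inhibitor (0.952), and H2-Q6 (0.9499). On deviations from the group means, r with Rbm3 was 0.18 for Kynu, 0.71 for Snapin, 0.80 for H2-Q6 and 0.87 for Pigr. With Cirbp, this r was 0.72 for Snapin and H2-Q6, 0.75 for Lxn and 0.80 for Optn, each above the 0.65 of Rbm3. Pigr was highest in the same libraries as Rbm3, at 226 FPKM in hypoxia replicate 4 and 151 FPKM in hypoxia replicate 5.

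Of 46 other protein-coding genes with names starting in Rbm, 37 were tested, and 3 rose and 0 fell in hypoxia at a limma adjusted p under 0.05, against 3.66% of all tested genes that rose and 7.79% that fell. The median log2 fold change was 0.17 in the family and 0.012 over all tested genes. Rbmx, a splicing regulator encoded on the X chromosome like Rbm3, rose to 12.9 ± 1.31 FPKM in hypoxia, against 9.27 ± 1.07 FPKM in controls (log2 fold change 0.46, adjusted p = 0.0142). Rbms1 was at 12.3 ± 0.488 FPKM in hypoxia and 10.5 ± 0.567 FPKM in controls (0.21, adjusted p = 0.0418), and Rbm11 at 0.833 ± 0.124 FPKM in hypoxia and 0.375 ± 0.146 FPKM in controls (0.62, adjusted p = 0.0403). The control mean of Rbm11 was under the filter of 0.5 FPKM, so Rbm11 was tested only because of its level in hypoxia. Omitting 1 library at a time ended the call of Rbms1 in 8 and that of Rbm11 in 9 of 10 fits, with an adjusted p of up to 0.101 (without control replicate 2) and 0.0849 (without control replicate 5). Scaling without the 100 most abundant genes gave 7 higher members in place of 3, and leaving out hypoxia replicate 5 gave 4 higher and 3 lower. The count was 1 without hypoxia replicate 1, 3 or 4 or control replicate 1, 2, 3 or 5, and 3 of 37 without hypoxia replicates 4 and 5, where 4.53% of all tested genes rose and 7.75% fell.

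Proteins with a cold shock domain, a different fold named for bacterial cold shock proteins, gave 0 genes that rose and 1 that fell among 6 tested, where 3.66% of all tested genes rose and 7.79% fell, and 1 that rose when scaled without the 100 most abundant genes. Ybx1, the abundant messenger RNA-packing protein YB-1, fell to 251 ± 44.9 FPKM in hypoxia, against 370.4 ± 27.3 FPKM in controls (SD, n = 5 each), with a log2 fold change of -0.58 (limma adjusted p = 0.0216). The call of Ybx1 was lost in 5 of the 10 fits without 1 library (hypoxia replicate 4 and control replicates 1, 2, 3 and 5), with an adjusted p of up to 0.0604 without control replicate 2.

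Of 5 tested genes reported to act upstream of Rbm3 or Cirbp in other settings, 0 rose and 2 fell, set against 3.66% and 7.79% of all tested genes. In other fits 1 rose, without hypoxia replicate 5 and when scaled without the 100 most abundant genes. Trpv4, a cation channel of the plasma membrane that is activated by warmth and linked in cultured cells to RBM3 and CIRBP levels, had 25.5, 26.7, 26.3, 21.9 and 14.4 FPKM in hypoxia replicates 1 to 5, against 37.0 to 40.3 FPKM in controls. All 5 hypoxia libraries lay below the controls, and replicate 5 was the lowest. Across the table, 8.54% of tested genes were lower in hypoxia with no overlap of the groups. The log2 fold change was -0.77 (SE 0.151, limma adjusted p = 0.0117), and -0.55 without hypoxia replicates 4 and 5 (adjusted p = 0.000916). Bdnf, a growth factor that signals to Rbm3 in mouse neurons, was at 0.788 ± 0.285 FPKM in hypoxia and 1.58 ± 0.503 FPKM in controls, with overlap of the groups (-0.69, adjusted p = 0.0463). Its call was lost in 8 of the 10 fits without 1 library (adjusted p of up to 0.0998, without control replicate 2). Of the 10 other settings, 4 also ended it, among them that without hypoxia replicates 4 and 5 (0.125). Hsf1, the main activator of heat shock genes, was at 3.31 ± 0.494 FPKM in hypoxia and 3.68 ± 0.281 FPKM in controls (adjusted p = 0.368). Sp1, which binds the mild cold responsive element of Cirbp, was at 12.5 ± 1.36 FPKM in hypoxia and 10.5 ± 0.451 FPKM in controls (0.24, adjusted p = 0.060). Hnrnph1, a splicing factor that acts on a poison exon of RBM3 in human cells, was at 26.9 ± 3.59 FPKM in hypoxia and 24.6 ± 2.33 FPKM in controls (adjusted p = 0.448). Trpv3 and Ntrk2 were below the filter.

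Among 4 tested genes of proteins that act on CIRBP, 1 rose and 0 fell (all tested genes, 3.66% and 7.79%). The gene that rose, Prmt1, encodes the arginine methyltransferase that modifies the CIRBP tail and was at 11.7 ± 1.64 FPKM in hypoxia and 9.10 ± 0.542 FPKM in controls (log2 fold change 0.34, limma adjusted p = 0.0351). The call of Prmt1 was lost in 8 of the 10 fits without 1 library, with an adjusted p of up to 0.0838 without control replicate 1. Tnpo1, the nuclear importin of CIRBP, and the kinases Csnk2a1 and Gsk3b had log2 fold changes from -0.032 to 0.040 and adjusted p from 0.744 to 0.868. Neither of the 2 tested receptors of extracellular CIRBP passed, Tlr4 at 1.59 ± 1.04 FPKM in hypoxia and 1.29 ± 0.298 FPKM in controls and Ly96 at 3.41 ± 1.17 FPKM in hypoxia and 2.95 ± 0.659 FPKM in controls (adjusted p = 0.763 and 0.691).

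Of 6 tested transcripts reported elsewhere as bound by CIRBP or RBM3, 0 rose and 1 fell, where 3.66% of all tested genes rose and 7.79% fell, with a median log2 fold change of -0.055. Clock, the circadian activator, fell to 4.87 ± 0.639 FPKM in hypoxia, against 6.20 ± 0.506 FPKM in controls (-0.32, limma adjusted p = 0.0455). This call was lost in 8 of the 10 fits without 1 library. It was also lost in 7 of the 10 other settings, among them that without hypoxia replicates 4 and 5 (adjusted p = 0.131). Rpa2, a subunit of the single-strand DNA binding complex, was at 4.12 ± 1.48 FPKM in hypoxia and 2.49 ± 0.216 FPKM in controls (0.58, adjusted p = 0.0542, and 0.0113 without hypoxia replicates 4 and 5). Txn1, thioredoxin, was at 156.9 ± 26.1 FPKM in hypoxia and 209.8 ± 18.3 FPKM in controls (-0.43, adjusted p = 0.0505).

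SR splicing factors and the kinases that phosphorylate them, a system known to read body temperature, gave 3 higher and 1 lower of 18 tested, beside 3.66% higher and 7.79% lower over all tested genes. Srsf11 was at 16.0 ± 2.41 FPKM in hypoxia and 11.4 ± 1.35 FPKM in controls (log2 fold change 0.46, limma adjusted p = 0.0271), and Srsf3 and Srsf2 had log2 fold changes of 0.38 and 0.41 (adjusted p = 0.0410 and 0.0473). Omitting 1 library at a time ended these 3 calls in 5, 7 and 8 of 10 fits, each with the highest adjusted p without control replicate 1 (0.0735, 0.0977 and 0.117). Without hypoxia replicates 4 and 5, only 1 of them, Srsf3, passed (adjusted p = 0.0235). The kinase gene Srpk1 fell to 4.68 ± 0.248 FPKM in hypoxia, against 5.81 ± 0.283 FPKM in controls (-0.29, adjusted p = 0.0168). It lost its call without control replicate 1 (adjusted p = 0.0534), with limma voom on the recovered reads (0.0617) and with replicate number as a block.

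Heat-inducible chaperones, which respond to temperature in the opposite direction to RBM3 and CIRBP, gave 0 higher and 12 lower of 18 tested, against 7.79% of all tested genes that fell. That these genes were lower was known when the list was made, so the count is a description. Their median log2 fold change was -0.61, and -0.59 without hypoxia replicates 4 and 5, where 13 of 18 fell. Hsph1 had 13.0, 12.3, 13.6, 9.47 and 13.7 FPKM in hypoxia replicates 1 to 5, against 24.9 to 29.8 FPKM in controls. Dnaja1, a co-chaperone of HSP70, had 25.7, 23.8, 19.1, 16.6 and 17.0 FPKM in hypoxia replicates 1 to 5, against 40.9 to 50.7 FPKM in controls. The libraries highest in Rbm3, hypoxia replicates 4 and 5, were the lowest in Dnaja1, but replicate 5 was the highest of the hypoxia libraries in Hsph1. The log2 fold change was -1.13 for Hsph1, -1.21 for Dnaja1, -0.98 for Hsp90aa1 and -0.78 for Ahsa1, a cochaperone of HSP90 (limma adjusted p = 0.000312, 0.000668, 0.000579 and 0.000522). Among the members that did not pass were Hspa1a, Hspa1b, Hspa8 and Dnajb1 (limma adjusted p = 0.110, 0.0633, 0.128 and 0.102), each with overlap of the groups.

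Clock genes, linked to CIRBP through the binding of Clock transcripts, gave 8 higher and 2 lower of 19 tested, against 3.66% of all tested genes that rose and 7.79% that fell. That these genes differed was known when the list was made. The 2 that fell were Npas2 (log2 fold change -1.35, limma adjusted p = 0.0120) and Clock, described above. Npas2 averaged 0.435 FPKM in hypoxia, under the filter of 0.5 FPKM, and was tested only because of its 1.94 FPKM in controls. Without hypoxia replicates 4 and 5, 8 rose and 1 fell of 18 tested, against 4.53% and 7.75% of all tested genes. Per2 had 6.08 to 7.46 FPKM in hypoxia and 2.83 to 4.04 FPKM in controls, with a log2 fold change of 0.91 (limma adjusted p = 0.000526). Per3 had one of 1.06 (adjusted p = 0.00247), Ciart one of 1.42 (0.00526) and Per1 one of 1.25 (0.00731). The count of higher clock genes was 5 without control replicate 4, control replicate 5, hypoxia replicate 1 or hypoxia replicate 3, and 11 without hypoxia replicate 5.

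**Figure D5:**
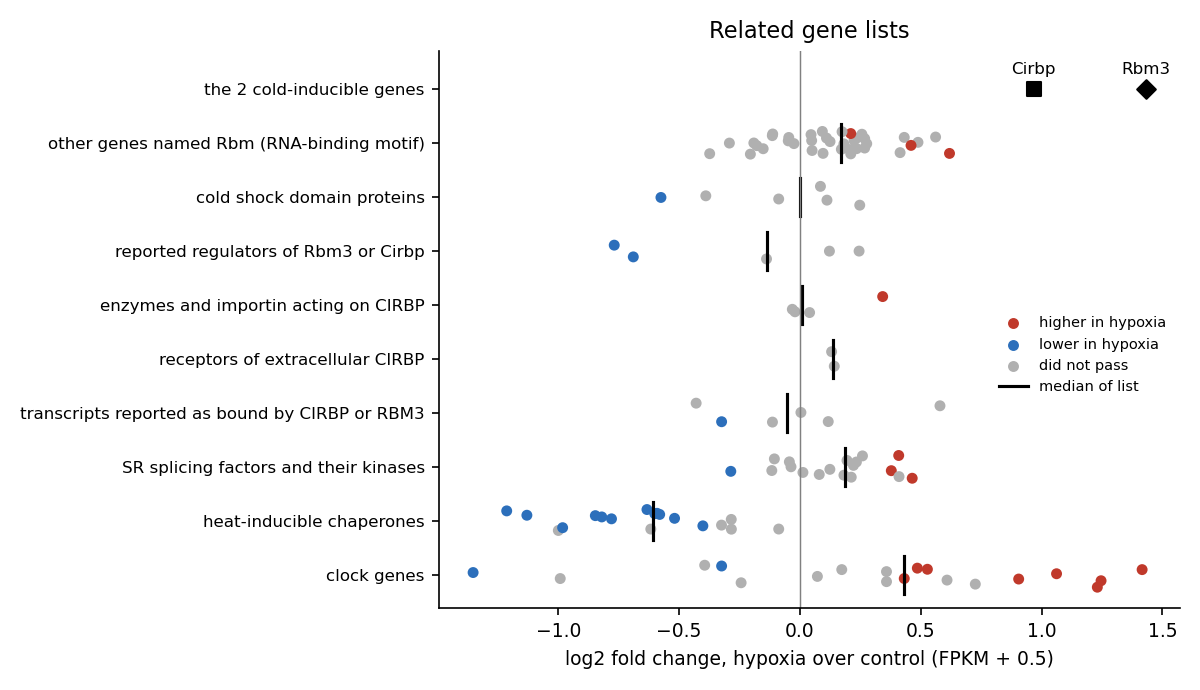
Log2 fold change, hypoxia over control (x axis), of Rbm3 and Cirbp (black, top row) and of the tested genes of 9 related lists (rows). Red points rose and blue points fell at a limma adjusted p under 0.05, grey points did not pass, and black bars are list medians. The heat-inducible chaperones lie left of 0 with a median of -0.61. Every listed gene lies below Rbm3, which was chosen for being high, at 1.43, with Ciart closest at 1.42. Without hypoxia replicates 4 and 5, not plotted here, Per1 at 1.40 and Ciart at 1.37 lie above Rbm3 at 1.24.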

How the data were processed

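Bulk RNA sequencing of 10 kidney libraries was used, 5 hypoxia and 5 control, grouped by the treatment label. The authors deposited 1 table of FPKM values per gene, beside each gene length (another unit, bases), from which reads were recovered. The submitters' processing notes name HISAT2 2.0.5 and the build hg38. Identifiers were nevertheless murine: 55141 occur in GENCODE vM21 (GRCm38), 99.42% of them at identical coordinates. The counting tool is not given in the sources used here. Multiplied by length, 100% of deposited FPKM values came to whole reads (tolerance 0.05), and the library size so implied was 0.949 to 1.10 times their sum. A gene of 1 kb needed 0.165 to 0.183 FPKM to rest on 3 reads, which covers counting error only.

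The 15264 genes averaging 0.5 FPKM or more were fitted in R 4.3.3 by limma 3.58.1 after taking log2(FPKM + 0.5) (eBayes with trend and robust), two-sided, with Benjamini-Hochberg adjustment over all of them and a threshold of 0.05. Differences are hypoxia minus control. The fit was tested on simulated data. Both genes passed the filter in each group. No set test was run. The members and lists were chosen with earlier results of these data known. Named from each list were up to 4 genes past the threshold with the smallest p, or else the 2 most abundant. Also named were the 5 genes most like each member, overlapping and neighbouring genes and genes with Rbm3 or Cirbp in the name. List genes outside this rule, where named (Hsf1, Sp1, Hnrnph1, Tnpo1, Csnk2a1, Gsk3b, Rpa2, Txn1, Npas2, Hspa1a, Hspa1b, Hspa8, Dnajb1), were chosen after their values were seen. Sequences came from RefSeq tables (GRCm38.p6), where 1 of the 2 members had a promoter entry, and copies were searched with blastn 2.17.0. Replicate libraries differed by more than sampling noise. Alternatives covered pseudocount, filter, scaling, replicate block, error model, recovered reads and the omission of libraries. Plots used Python 3.11.15 and matplotlib 3.10.9.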

Additional observations from a re-analysis of the deposited data

Results flagged for a closer look

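In a group of 5 libraries, a value was picked out when its gap to the nearest other value exceeded 0.71 of the range of the group. This picked out 6 of 70 groups of the genes named by the rule above, where chance alone picks out about 1 in 20. Rbm3 in control replicate 4 was at 5.482 FPKM, below the other controls at 6.572 to 6.779 FPKM. Without that library the log2 fold change of Rbm3 was 1.38. Per1 in control replicate 4 was at 8.639 FPKM, against 3.31 to 4.454 FPKM in the other controls. Optn in hypoxia replicate 4 was at 8.558 FPKM, against 5.701 to 6.315 FPKM in the other hypoxia libraries. The remaining 3 were high in hypoxia replicate 5, the library with B cell transcripts. Its adrenal cortex markers also summed to 12.0 FPKM, against 0.920 to 1.47 FPKM in controls, and its tubule markers had the lowest sum, 1513 FPKM. Tlr4 was there at 3.416 FPKM, against 0.8422 to 1.354 FPKM, Srsf3 at 22.26 FPKM, against 15.07 to 16.58 FPKM, and Prmt1 at 14.59 FPKM, against 10.46 to 11.5 FPKM in the other hypoxia libraries. The part of B cell or other additional transcripts in these values was not tested.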

How the results depend on the processing

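The log2 fold changes of Rbm3 and Cirbp stayed above 0 in all 20 alternatives, at 1.24 to 1.57 and 0.80 to 1.08, with the lowest values without hypoxia replicates 4 and 5 and the highest with limma voom on the recovered reads. Leaving out each library in turn gave 1.34 to 1.52 for Rbm3 and 0.88 to 1.04 for Cirbp. Among all tested genes 1748 passed, 966 with no filter on low values and 824 to 2724 without 1 library. The lists together held 33 genes past the threshold, 21 with no filter and 19 to 45 without 1 library. The share of calls that were higher was 32.0%, against 54.4% when scaled without the 100 most abundant genes and 45.7% with voom, so the direction of small differences depends on scaling. With replicate number as a block, 999 genes passed, and the log2 fold changes of Rbm3 and Cirbp were 1.43 and 0.97. Same-numbered libraries deviated together at r of -0.077 to 0.086, so the numbers were not taken as pairs. The cause of these shifts was not tested. No gene named by the rule above reversed a call. Depth limits Rbm3-ps, Gm10156, Gm48583 and Rbm3os, which rested on few reads.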

Other observations

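Of 5 markers of brown fat, a tissue known for cold-induced heat production, 3 were tested, and 2 of these fell, against 7.79% of all tested genes. Together the 5 summed to 5.20 to 12.9 FPKM in hypoxia and 10.7 to 49.5 FPKM in controls. Ucp1, the uncoupling protein of brown fat, was at 0 to 0.101 FPKM in hypoxia and 0 to 14.4 FPKM in controls, and fell by 3.23 on the log2 scale (SE 0.763, adjusted p = 0.0244 by limma, but 0.0599 without hypoxia replicates 4 and 5). The hypoxia mean of Ucp1 was under the filter of 0.5 FPKM, so Ucp1 was tested only because of its level in controls. Cidea, a lipid droplet protein, was at 0.0987 to 2.58 FPKM in hypoxia and averaged 10.1 ± 7.21 FPKM in controls (SD, n = 5). It fell by 2.83 on the log2 scale (limma adjusted p = 0.0392, and 0.0440 without hypoxia replicates 4 and 5). The groups overlapped for both genes, which were named after their values were seen. Cox7a1, a subunit of cytochrome c oxidase, was at 8.05 ± 2.78 FPKM in hypoxia and 15.4 ± 5.33 FPKM in controls and did not pass (limma adjusted p = 0.0572). Elovl3 was near 0 in both groups, at 0 in all hypoxia libraries and 0 to 0.152 FPKM in controls, and was not tested. How much fat was taken with each kidney is not given in the labels.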
